A study of Homo sapiens with 16 samples.

Results

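The 679 regions described here had a peak in both lists named WT-AS and in none of the lists named WT or K512R-AS. They were chosen by these peak calls, that is, on measured values of the 6 lists named. They came from a study of RNA bound to PABPC1 in H1299, an established line of human lung carcinoma cells. The sample record, however, places the lists named WT-AS and K512R-AS under input RNA, as set out below. The 679 regions made up 1.85% of 36802 regions in all. A region is a stretch of one strand on which peaks of any of the 8 lists overlapped by 1 bp or more. By the names of the lists, these regions gained a peak with sodium arsenite (AS) when PABPC1 was wild type, and had none with arsenite when PABPC1 carried the K512R change. Presence in the lists named K512R, the untreated mutant, was left free by the rule, and 519 regions had a peak in neither of these lists, 94 in 1 and 66 in both.

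The cells stably expressed Myc-tagged PABPC1, wild type (WT) or K512R, with or without 500 µM sodium arsenite, and RNA was recovered with an anti-Myc antibody. The lists used are named WT-AS (WT with arsenite), WT (untreated), K512R-AS (mutant with arsenite) and K512R (untreated mutant), with 2 replicates each. The sources used here do not say whether each line was 1 clone, what promoter drove the transgene or how much endogenous PABPC1 remained. The sample record disagrees with 3 of these 4 names. It holds the WT-AS-named lists under the input RNA of WT cells, the K512R-AS-named lists under WT-AS input, the K512R-named lists under WT-AS IP, and the WT-named lists under WT IP. Under the record, the 679 regions were therefore in both WT input lists and in none of the lists of WT IP and WT-AS input. Which reading is right was not settled, so every group below is called by the name of its lists, and arsenite and K512R below mean what those names say. No list of the other 8 samples was used here.

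PABPC1 binds the poly(A) tail of cytoplasmic mRNAs and takes part in their translation and stability. Arsenite is an oxidative stressor that halts translation initiation in most cells, and the released mRNAs gather with PABPC1 and other RNA-binding proteins in stress granules. Lysine can carry SUMO, a small protein modifier, and arginine cannot, which is why a lysine-to-arginine change is used to remove a candidate SUMO site. The title of the study concerns SUMO on PABPC1 and mRNAs held in stress granules. RNA recovered with a bound protein, sequenced and passed to a peak caller gives stretches of transcripts with many reads.

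The lists held 19953 to 25111 peaks, the longest being K512R-1 with 24183 and K512R-2 with 25111. Each peak has the authors' score, whose unit is not stated. It is used here as a rank, the percentile within its own list, in which the middle peak stands at 50. Scores ran from 13.02 to 3233.06, and 8.17% to 11.0% of a list had 3100 or more, so the best peaks are nearly tied. A missing peak does not mean a poor score elsewhere. Of 16704 cases in which a region had a score of 3100 or more in one list of a pair, 612 (3.66%) had no peak at all in the other list of that pair. The share was 2.89% to 4.52% over the 8 lists. An exact comparison of 2 lists against 2 cannot pass 0.05, so no p-value is given, and shares of members stand beside the same shares of other regions where these could be counted. Nothing in the labels says that replicates came from separate cultures.

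Among the regions gained between the WT-named and the WT-AS-named lists, the 679 were the minority that had no peak in either K512R-AS-named list. In all, 3021 regions (8.21% of all regions) had a peak in both WT-AS-named lists and in neither WT-named one. Of these, 1719 (56.9%) also had a peak in both K512R-AS-named lists, 623 (20.6%) in 1 and the 679 (22.5%) in none. Seen from the other side, 1386 regions (3.77% of all) were in both WT-AS-named and in neither K512R-AS-named list. The 679 were 49.0% of those, and 479 others were also in both WT-named lists. The rule used these contrasts, so the counts describe the members and support nothing about them.

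The same rule was turned on each of the other pairs, with the pairs that differ by treatment alone or by genotype alone absent and the diagonal pair free. It gave 315 regions (0.856% of all) for the WT-named lists, 406 (1.1%) for the K512R-AS-named lists and 1240 (3.37%) for the K512R-named lists. The 679 thus lay above the first and second of these and below the third. As shares of all regions that both lists of the pair held, they were 3.85% for WT-AS, 1.70% for WT, 2.35% for K512R-AS and 5.93% for K512R. The WT-AS-named lists (20309 and 21160 peaks), with 679 regions, were shorter than the WT-named ones (21979 and 22083), with 315. For the WT- and K512R-AS-named lists, the rule required absence from the K512R-named lists, the longest at 24183 and 25111 peaks. How list length bears on these counts was not tested.

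**Figure D1:**
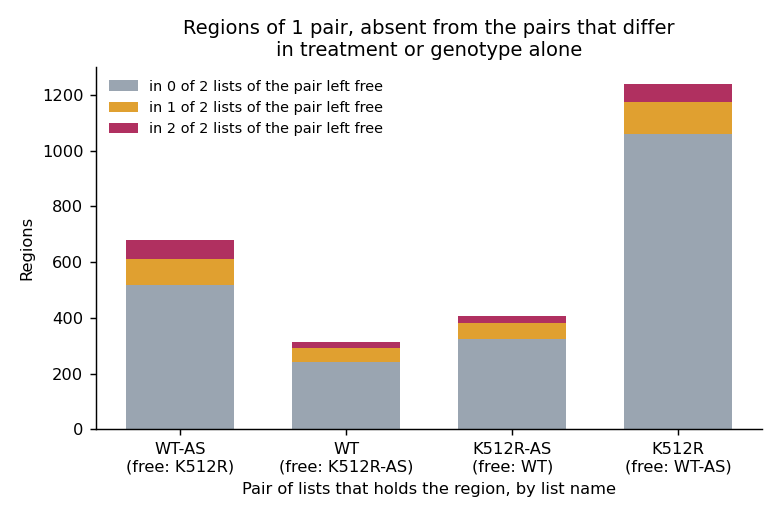
Regions in both lists of 1 pair and in none of the lists of the 2 pairs that differ from it by treatment or genotype alone; the horizontal axis gives the pair by list name, the vertical axis the number of regions, and colours the number of lists of the remaining, free pair that also hold them. The 679 regions of the WT-AS-named pair stand between the 406 of the K512R-AS-named and the 1240 of the K512R-named pair.

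The members, which the rule required to be in both WT-AS-named lists, were mostly poorly scored peaks. Their median percentile was 21.1 in WT-AS-1 and 24.5 in WT-AS-2, against 56.5 and 58.1 for the other 16960 regions in both of these lists. The median score was 36.47 in WT-AS-1 and 40.58 in WT-AS-2 for the members, and 225.885 and 226.54 for the other regions. Members therefore sat mostly in the lower part of both lists, but not all did. In 65 members (9.57%) both peaks ranked above the middle of their list, against 52.8% of the other regions. Both scores were at least 100 in 88 members (12.96%), against 61.0% of the other regions. They were at least 1000 in 11 members (1.62%, against 21.5%), and in 5 (0.736%, against 10.2%) at least 3100.

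Regions from the neighbouring classes show how much of this rank goes with the K512R-AS-named lists. The 479 regions kept in both WT-named lists and absent from the K512R-AS-named ones had median percentiles of 21.7 and 24.1, close to the members. The 1719 regions gained in both pairs named for AS had 45.6 and 47.4. So regions of the WT-AS-named lists that had no peak in the K512R-AS-named lists were poorly ranked whether or not untreated WT held them. Ranks in the 2 lists were related less tightly among members (Spearman's rho 0.58 over 679 regions) than among the other regions (0.92 over 16960). These values describe regions, which share libraries and are not independent replicates. The median distance between a region's 2 percentiles was 9.23 for members and 5.17 for the others. Members also covered a lower and narrower span of ranks, with quartiles in WT-AS-1 of 10.1 and 35.1, against 33.5 and 78.3 for the others. Both rho and this distance can depend on that span, and no comparison at equal rank was made.

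**Figure D2:**
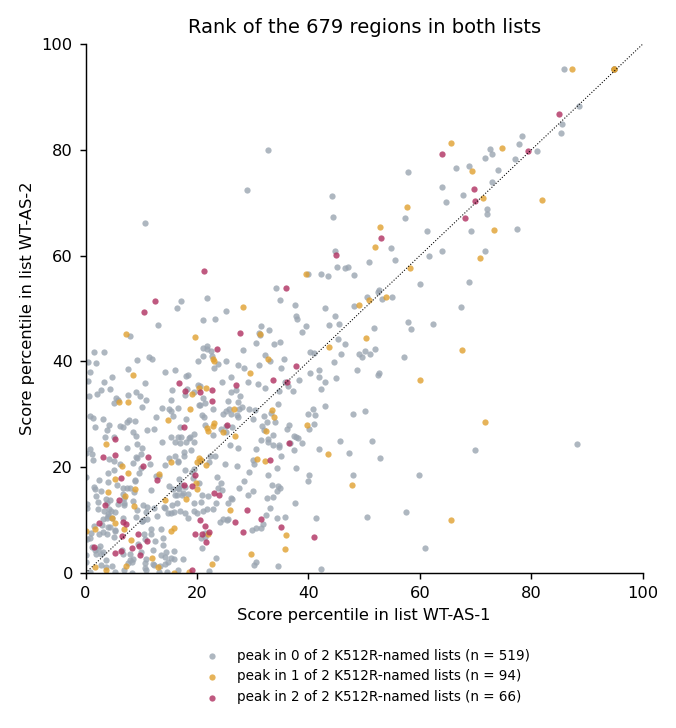
Score percentile of each of the 679 regions in list WT-AS-1 (horizontal axis) and WT-AS-2 (vertical axis), from 0 for the poorest to 100 for the best peak of the list; colours give the number of K512R-named lists that also hold the region, and the dotted line marks equal rank. Most points lie in the lower left, with medians of 21.1 and 24.5, and a short tail of 65 regions runs above 50 in both lists.

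Just outside the rule stood 851 regions in both WT-AS-named lists and in exactly 1 of the 4 lists that had to be empty. The odd list was WT-1 for 112 of them, WT-2 for 116, K512R-AS-1 for 260 and K512R-AS-2 for 363. The peak that broke the rule was itself poorly ranked, with a median percentile of 18.7 and a median score of 32.65. A further 1616 regions were in only 1 WT-AS-named list and in none of the 4, where the median percentile of the single peak was 11.4. Leaving out K512R-AS-2 raised the number of members to 1042, and leaving out WT-AS-1 or WT-AS-2 raised it to 1616 and 1360. When peaks with a score under 50 were removed from all lists, 522 regions met the rule, and 169 of the 679 were among them.

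The best-ranked of these 851 outside chromosome 8 had the score of 3100 in both WT-AS-named lists. One, on chromosome 16 at 2811562 to 2818262 (plus strand, 6701 bp), also scored 3100 in WT-2 and in both K512R-named lists, and had no peak in WT-1. Another, on chromosome 12 at 49521567 to 49522721 (minus strand, 1155 bp), scored 3100 in WT-1 and in both K512R-named lists, and had none in WT-2. In both, the 2 untreated WT replicates disagreed wholly. On chromosome 15 at 72491370 to 72492097 (minus strand) the odd peak was in K512R-AS-1, with a score of 378.8, and K512R-1 and K512R-2 had 114.01 and 274.12. The last of these 4 adjoins a member and is described with it.

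The best-scored members reached the top of both lists while the 4 other lists had nothing. Taken first by rank were 5 regions with a score of 3100 in both WT-AS-1 and WT-AS-2. The one on chromosome 12 at 49666036 to 49667121 (hg19, plus strand, 1086 bp) also had a peak in K512R-2, with a score of 107.25, and none in K512R-1. The one on chromosome 19 at 36245467 to 36246476 (minus strand, 1010 bp) had a peak in K512R-1 with a score of 3100 and none in K512R-2. The other 3 lay on chromosome 19 at 8467369 to 8467808 (plus strand), on chromosome 4 at 666225 to 666308 (minus strand) and on chromosome 6 at 34211245 to 34211295 (plus strand), and had no peak in either K512R-named list. They measured 440, 84 and 51 bp, so a top score did not require a wide peak.

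These top regions differed in what lay around them. On chromosome 19, the region at 8467369 had a peak of an excluded list only 488 bp away. That neighbour, at 8468297 to 8469317 on the same strand, scored 3100 in WT-AS-1, WT-AS-2 and WT-2 and was absent from the other 5 lists. A single peak of WT-2 thus kept it out of the members. The chromosome 19 region at 36245467, by contrast, stood far from the excluded lists, whose nearest peak on its strand was 143144 bp away. The region on chromosome 6 at 34211245 had one 672 bp away.

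Regions on chromosome 8 are not named here, and one with scores of 1896.4 and 3100 in WT-AS-1 and WT-AS-2 would have ranked among the next. Outside chromosome 8, the next 7 members by rank scored between 955.36 and 3100 in the WT-AS-named lists. On chromosome X at 151092072 to 151093642 (plus strand, 1571 bp) the scores were 2566.75 and 2283.95 in WT-AS-1 and WT-AS-2, with no peak in any other list. On chromosome 15 at 40674922 to 40675245 (plus strand) they were 2222.71 and 3100, and K512R-2 held a peak of 1996.87 there. Regions on chromosome 6 at 24780891 to 24780968, on chromosome 5 at 132426885 to 132427066 (both plus strand) and on chromosome 2 at 84650647 to 84650896 (minus strand) were found in the WT-AS-named lists alone. Their scores were 1809.51 and 1519.55, 1799.88 and 1296.4, and 1164.67 and 956.11, in WT-AS-1 and WT-AS-2. These last 3 regions were narrow, at 78, 182 and 250 bp.

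The other 2 of these 7 were held by both K512R-named lists as well. On chromosome 12 at 122439403 to 122439504 (plus strand, 102 bp) the score was 1697.76 in WT-AS-1, 1885.05 in WT-AS-2, 1947.02 in K512R-1 and 1919.23 in K512R-2. All 4 peaks had the same width and nearly the same rank, between 84.9 and 88.5. On chromosome 11 at 134113013 to 134113188 (plus strand, 176 bp) the score was 1023.4 and 955.36 in WT-AS-1 and WT-AS-2, and 3100 in each K512R-named list. By list name these regions were present with arsenite in WT cells and without it in K512R cells, and had no peak in untreated WT or treated K512R cells. Under the record they were in WT input and in WT-AS IP.

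The rule did not use presence in the K512R-named lists. Of the members, 160 (23.6%, 95% Wilson interval 20.5% to 26.9%, counting error only) had a peak in at least 1 of these lists, 105 in K512R-1 and 121 in K512R-2. Over all regions in both WT-AS-named lists that share was 85.3%, and over all regions 76.8%. The share was higher the more excluded lists held the region: it was 23.6% for the members, in none, 42.5% for regions in 1, 52.6% in 2, 88.3% in 3 and 98.9% in all 4. Regions in only 1 WT-AS-named list and in none of the 4 had 21.3%, so being found in both replicates went with a share little different from that of being found in 1. With every list limited to its best 19953 peaks the share was 13.2%, over 684 members, a limit under which the K512R-named lists, the longest, lose the most peaks.

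Which of the excluded lists held a region mattered for this share. Among regions just outside the rule, those with a peak in 1 WT-named list also had one in a K512R-named list in 74.6% of 228 cases. Those with a peak in 1 K512R-AS-named list did so in 30.8% of 623 cases, nearer to the members. Regions kept in both WT-named lists and absent from K512R-AS-named ones reached 96.2%, and regions gained in both pairs named for AS 35.7%. The members thus had the lowest share of the 9 classes made by 0, 1 or 2 WT-named and 0, 1 or 2 K512R-AS-named lists. The classes share the same 8 libraries, and these shares were not tested.

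The members also had a low share within bands of rank. Within the lowest 20 percentiles of mean rank, 23.6% of 296 members had a K512R-named peak, against 42.6% of 282 regions in 1 excluded list and 96.4% of 585 regions in all 4. From 20 to 40 it was 22.2% of 261 members, and from 40 to 60 it was 20.5% of 73. From 60 to 80 the share was 36.1% of 36 and above 80 it was 30.8% of 13, groups too small to place an order between them. In each of the 5 bands of rank the members had the lowest share of the 5 classes.

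**Figure D3:**
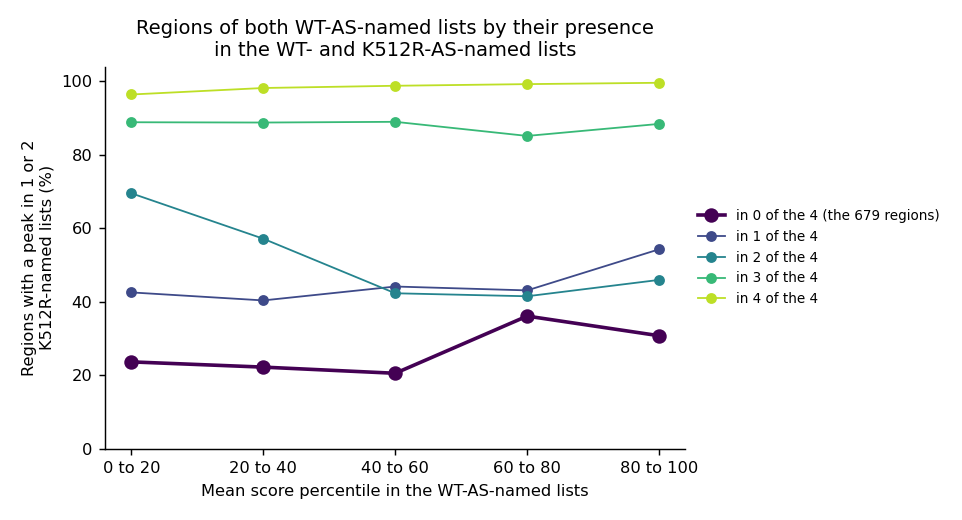
Share of regions with a peak in 1 or 2 K512R-named lists (vertical axis, percent) by mean score percentile in the WT-AS-named lists (horizontal axis, 5 bands), with a line for regions found in 0, 1, 2, 3 or 4 of the 4 WT- and K512R-AS-named lists. The line of the 679 members, in 0 of the 4, runs lowest at 20.5% to 36.1%, and that of regions in all 4 runs at 96.4% to 99.6%.

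The same rule on the other pairs gave shares of the same order. In the free pair, at least 1 list held 23.6% of the WT-AS members, 23.8% of the regions found by the rule for the WT-named lists, 20.2% for the K512R-AS-named lists and 14.5% for the K512R-named lists. Both free lists held 9.72%, 7.62%, 5.91% and 5.32% of them. The sets for the WT-AS- and WT-named lists thus had about the same share in their free pairs, but these free lists differed in length. They held 24183 and 25111 peaks for WT-AS, and 19953 and 20971 for WT. With every list limited to its best 19953 peaks, the share for WT-AS was 13.2%. The shares for the other pairs were not computed at that limit, so 13.2% has no counterpart among them.

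The 66 members in both K512R-named lists were gained there over the WT-named lists too, a change seen in 4.97% of all regions and 9.72% of members. Both gains rest on the same 2 WT-named lists being empty. Over all regions empty in the WT-named lists, 16.1% were in both K512R-named lists. The 66 ranked low in every list that held them, with median percentiles of 20.8 and 18.2 in WT-AS-1 and WT-AS-2, and 17.7 and 19.9 in K512R-1 and K512R-2. In 34 of the 66 the mean rank was higher in the K512R-named lists. Members found in a single K512R-named list (39 in K512R-1, 55 in K512R-2) ranked lower there, at medians of 10.1 and 15.4, against 22.7 and 26.9 in WT-AS-1 and WT-AS-2.

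**Figure D4:**
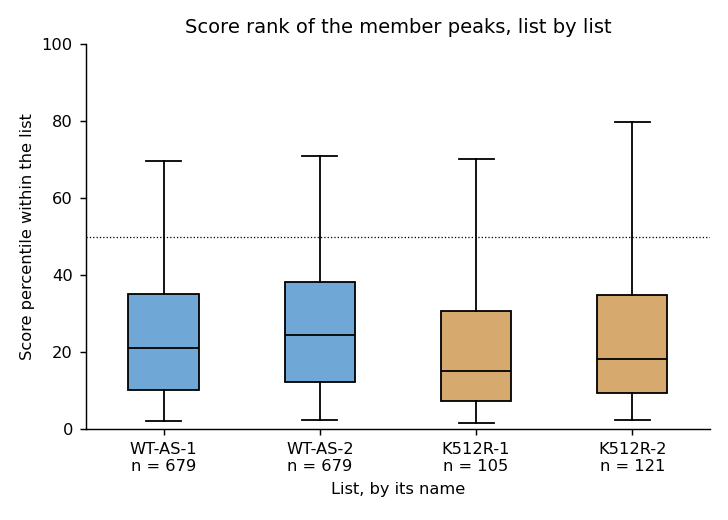
Score percentile within the list (vertical axis) of the member peaks in each of the 4 lists that can hold them (horizontal axis, with the number of members held); boxes give the quartiles and the median, whiskers the 5th and 95th percentiles, and the dotted line the middle of a list. The median lies below the middle in all 4 lists, at 21.1 in WT-AS-1 and 24.5 in WT-AS-2, while some members lie above it in each.

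Besides the pair on chromosomes 12 and 11, and leaving out chromosome 8, the best-ranked of the 66 lay on chromosomes 1, 9 and 2. On chromosome 1 at 231003926 to 231004302 (minus strand) scores were 500.17 and 549.24 in WT-AS-1 and WT-AS-2, and 597.29 and 895.59 in K512R-1 and K512R-2. On chromosome 9 at 34664632 to 34665187 (minus strand) they were 453.59 and 381.25 in WT-AS-1 and WT-AS-2, and 700.01 and 912.62 in K512R-1 and K512R-2. The first stood 24283 bp from any peak of an excluded list, and the second only 422 bp. Chromosome 2 held a region at 73452924 to 73454355 (plus strand, 1432 bp) in which the order was the other way, with 512.18 and 470.45 in WT-AS-1 and WT-AS-2 against 131.15 and 111.72 in K512R-1 and K512R-2. A narrower one at 73298733 to 73298949 on the minus strand had 68.54, 72.34, 53.51 and 117.5 in WT-AS-1, WT-AS-2, K512R-1 and K512R-2.

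Where the lists had a region in common, they mostly drew the same peak. Of 678 members with 1 peak in each WT-AS-named list, 591 (87.2%) had identical start and end in both, against 86.8% of the other regions. Between a WT-AS-named and a K512R-named list both ends were identical in 78.5% to 83.8% of the members held by both, and in 84.8% to 85.7% of the other regions. A member found again without arsenite in the mutant by list name was thus usually the same interval, though less often than the other regions were. A peak counted here only if it overlapped the member, so a neighbouring peak could not appear in this count.

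Members were narrower than the other regions. Their median width was 150 bp, with quartiles of 102.5 and 284 bp, against 188 bp for the other regions of both WT-AS-named lists. Widths ran from 31 to 4449 bp, 159 members (23.4%) were under 100 bp and 41 (6.04%) over 1000 bp, against 16.3% and 6.78% of the other regions. The regions gained in both pairs named for AS had a median of 154 bp, and those kept in WT-named and absent from K512R-AS-named lists 184 bp. Narrow width thus went with absence from the WT-named lists. Members in no K512R-named list had a median width of 144 bp, and those in 1 or 2 of them 183 and 181.5 bp. Among regions with a mean percentile up to 40, members made up 11.5% of those up to 100 bp wide and 6.88% of those over 500 and up to 1000 bp. They made up 8.45% of those over 1000 and up to 2000 bp, so the share did not fall throughout. Over all ranks it was 5.40% up to 100 bp, 2.28% over 500 and up to 1000 bp, and 5.07% of 217 regions over 2000 bp.

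Of the 4 widest members, 2 were also in both K512R-named lists and 2 in neither. On chromosome X at 150573388 to 150577836 (plus strand, 4449 bp) scores were low in WT-AS-1 and WT-AS-2, at 30.87 and 46.86, and higher in K512R-1 and K512R-2, at 73.95 and 341.34. On chromosome 3 at 88101177 to 88105594 (minus strand, 4418 bp) they were 36.17 and 18.27 in the WT-AS-named lists, and 236.79 and 446.09 in the K512R-named ones. Both ranked better in both K512R-named lists. On chromosome 1 at 52552384 to 52555501 (plus strand, 3118 bp) scores were 157.07 and 89, and on chromosome 10 at 16632628 to 16635495 (minus strand, 2868 bp) 317.91 and 123.48, in WT-AS-1 and WT-AS-2. Neither of these had a peak in a K512R-named list.

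At the median, members lay farther from peaks of the excluded lists than the other regions did, while the shares within 1000 bp were close. The nearest peak of an excluded list on the same strand was at a median of 5177 bp, against 3769 bp for the other regions of both WT-AS-named lists. Such a peak lay within 100 bp of 3 members (0.442%), within 1000 bp of 75 (11.0%) and within 10000 bp of 460 (67.7%), against 0.242%, 11.7% and 73.8% of the other regions. No member overlapped a peak of an excluded list on the opposite strand, and 13 of the other 16960 regions did.

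Regions less than 10 kb apart on one strand were chained into runs, and the 679 members fell into 604 runs. In 154 runs the member was the only region, and these were 22.7% of members, against 23.6% of the other regions that stood alone. Another 406 runs, with 471 members, also held a peak of an excluded list, so the member was one peak among others that WT- or K512R-AS-named lists shared. A run held a region common to all 8 lists for 217 members (32.0%), against 39.97% of the regions gained in both pairs named for AS and 44.9% of those kept in WT-named and absent from K512R-AS-named lists. The remaining 44 runs, with 54 members, held several regions and no peak of the 4 excluded lists, and 30 of them had none of the K512R-named lists.

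Neighbouring members formed 82 groups of 2 or more within 50 kb on one strand, which held 186 members (27.4%). The share so grouped was 22.1% of the 479 regions kept in WT-named and absent from K512R-AS-named lists. By the same rule on the other pairs it was 8.25% of 315 for WT, 10.8% of 406 for K512R-AS and 38.5% of 1240 for K512R. Larger sets have more neighbours, so these shares do not show that members cluster. Of the members' groups, 64 held 2, 14 held 3 and 4 held 4. Outside chromosome 8, the shortest group of 4 lay on chromosome 7 at 27824782 to 27835838 (plus strand). Its members at 27824782, 27831625, 27832685 and 27835735 scored 106.49, 66.96, 79.73 and 93.85 in WT-AS-1 and 207.07, 86.18, 47.81 and 52.93 in WT-AS-2. The only other region between them on the plus strand, at 27827037 to 27827222, had a peak in WT-AS-2 alone. In this span of 11057 bp, all peaks on the plus strand were thus from the WT-AS-named lists. The nearest peak of an excluded list on that strand was 15328 bp from the first member.

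A second group of 4, on chromosome 2 at 65454829 to 65488526 (plus strand), had no other region on that strand between its members. Those at 65454829, 65466986, 65473658 and 65488381 scored 124.13, 13.51, 52.46 and 44.88 in WT-AS-1 and 223.21, 78.2, 95.44 and 44.66 in WT-AS-2. The value of 13.51 lay close to the lowest score in the list, so that 1 of the 4 was a member by a small margin. The nearest peak of an excluded list on the strand was 154518 bp away, and neither K512R-named list had a peak in these 4 regions. All 4 regions were 111 to 263 bp wide.

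The group on chromosome 10 at 70497602 to 70532856 (plus strand) was mixed. Its members at 70497602, 70502133, 70507131 and 70532745 scored 17.02, 60.62, 174.65 and 121.73 in WT-AS-1 and 34.51, 112.16, 118.87 and 133.77 in WT-AS-2. The second also had a peak in K512R-2, with a score of 19.14. Between them on that strand lay 5 other regions. Those at 70500386, 70516030 and 70517051 had peaks in both K512R-AS-named lists, and the one at 70530963 in both WT-named lists. The fifth, at 70509281, was in WT-AS-2 alone. Here members alternated with peaks shared with the other conditions.

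Members were unevenly spread over the chromosomes. Of the regions in both WT-AS-named lists, they made up 13 of 1112 (1.17%) on chromosome 19, 2 of 185 (1.08%) on chromosome 21, 10 of 425 (2.35%) on chromosome 22 and 22 of 800 (2.75%) on chromosome 17, against 3.85% over all chromosomes. Gene density per chromosome was not measured here, and its link to these shares was not tested. The highest shares were 5.45% on chromosome 10, 5.41% on chromosome 15, 5.40% on chromosome X and 5.28% on chromosome 13. The low share on chromosome 19 also held among poorly ranked regions. With a mean percentile up to 40, 9 of 302 regions there were members (2.98%), against 557 of 5870 (9.49%) over all chromosomes, while the X chromosome had 32 of 217 (14.7%) and chromosome 15 had 27 of 178 (15.2%). Chromosome Y held 35 regions of both lists and no member. Regions close together may belong to 1 transcript, so regions on a chromosome are not independent, and these shares were not tested. By strand, 375 members (55.2%) were on the plus strand, against 50.9% of the other regions.

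**Figure D5:**
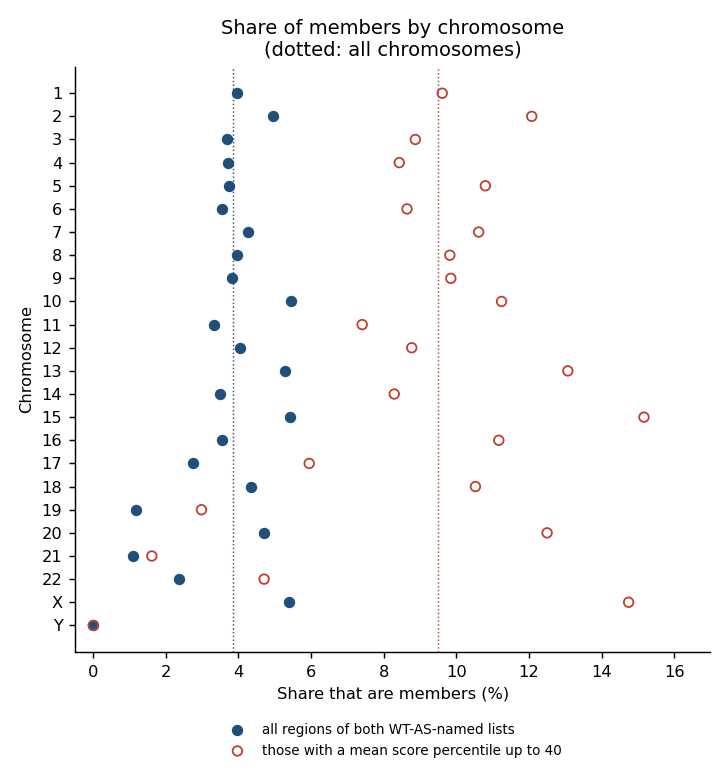
Share of regions that are members (horizontal axis, percent) on each chromosome (vertical axis), over all regions in both WT-AS-named lists (filled) and over those with a mean score percentile up to 40 (open); dotted lines mark the values over all chromosomes, 3.85% and 9.49%. Chromosomes 19, 21 and 22 lie left of both lines, and chromosomes 10, 13, 15 and X right of both.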

How the data were processed

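RNA was immunoprecipitated with anti-Myc antibody from H1299 cells and ribosomal RNA removed, per the labels' protocols. Per the submitters' processing notes, HISAT2 2.0.4, cutadapt 1.9.3 and the build hg19 were used, with no order or settings given. The authors deposited 1 peak list per sample for 8 samples, in which every peak has a position, a strand and a score. Peak names begin with MACS, per the deposited lists. The caller's version, control and threshold, and the meaning of the mRNA label in list names, are not stated in the labels or lists. Coordinates are hg19, counted from 1. The gene table used here is of another build, so no gene was assigned and no sequence read.

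Lists were taken by name, as the rule for members names them, and groups by the titles in the record. The members and comparisons were chosen with earlier results of these data known. The count of top-scored regions missing from a replicate and the run and group counts were added on seeing the lists. A member's rank is the percentile of its score, ties at their mid-rank. Named regions are the 12 best by the poorer rank in the WT-AS-named lists (ties by width, then position), the 4 widest, the 6 best held by both K512R-named lists, the 3 largest groups (ties by span) and the 4 best in exactly 1 excluded list, none from chromosome 8. Depth per sample is unknown, so deeper sequencing could lengthen a list, and precision is limited by the number of lists and by an unknown depth. Alternatives changed the score minimum, list length, overlap, strand, absence, presence and each list in turn. The computation of the rule was checked on simulated peaks, where all 200 planted regions were found. The simulated regions were spaced so that none could join another, so this does not show how the rule behaves on crowded peaks. Work was done in Python 3.11.15 with pandas 2.3.3, numpy 2.4.6, matplotlib 3.10.9 and scipy 1.17.1.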

Additional observations from a re-analysis of the deposited data

How the results depend on the processing

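The number of member regions stayed within 1.5 times of 679 with a score minimum of 50, lists of equal length, an overlap of 50% of the shorter peak, strand ignored, or no excluded-list peak within 500 bp (522 to 684), but the score minimum kept 169 of the 679 and equal lengths kept 585. It was 1530 with 1 excluded list allowed and 2295 with 1 WT-AS-named list enough, and 679 to 1616 with each list left out. The share of members with a K512R-named peak was 20.9% with the score minimum, 13.2% at equal lengths and 34.1% with 1 excluded list allowed, and 15.5% to 31.7% with each list left out. Its low end came from leaving out K512R-1 (17.8%) or K512R-2 (15.5%). There the share counts the 1 K512R-named list that remained, so it cannot rise. The mean of the median percentiles, 22.8, was 43.2 with the score minimum, 25.5 with 1 excluded list allowed and 15.9 with 1 WT-AS-named list enough, and 15.8 to 24.6 with a list left out. The median width of 150 bp was 156.25, 153.5, 146, 157.5 and 152 bp with the score minimum, equal lengths, the 500 bp rule, 1 excluded list allowed and 1 WT-AS-named list enough, and 149 to 154 bp with a list left out. The share within 1000 bp of an excluded-list peak was 7.79% with the 500 bp rule, which removes the closest by construction, and 11.0% to 12.1% with a list left out. The regions given by the same rule on the other 3 pairs, 1961 in all, became 4829 and 7806 under the looser absence and presence rules and 2212 to 3905 with a list left out. Looser rules, and fewer lists that must be full or empty, admit more regions by construction. No paired analysis was possible because none of these counts, shares and medians comes from a test. The lists give no counts, so depth limits which peaks could be called in each.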
